A study of Mus musculus with 16 samples.

Results

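The transcription factors of the colonic secretory lineage Atoh1, Gfi1, Spdef, Creb3l1, Creb3l4, Foxa3, Foxa1, Foxa2, Klf4 and Bhlha15, were followed in sorted epithelium. They are 10 of the 45513 genes counted. They were picked by their known roles and not by a threshold on these values, but with earlier results of these data known. Single-end RNA sequencing covered 16 libraries from the colon of 8 adult C57BL/6 mice. All mice were homozygous for Atoh1(WT)CreERT2, a knock-in in which a tamoxifen-dependent Cre recombinase is made together with wild-type ATOH1 from the Atoh1 locus itself, and heterozygous for Rosa26tdTom, a reporter that Cre switches on permanently. All received tamoxifen, 1 mg per day on 3 days by the sample labels and by the study's account of animal treatment, while its account of RNA sequencing names another regimen. Live EpCAM+ epithelial cells of each mouse were split by flow sorting on the reporter, so that both groups hold 8 libraries of the same 8 animals, tdTom+ and tdTom-, and carry the same alleles and treatment. The tdTom+ fraction is defined by activity of the Atoh1 locus, and the tdTom- fraction is every other EpCAM+ cell, a mixture of absorptive, stem, proliferating, enteroendocrine and tuft cells and of any secretory cell that escaped labeling.

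In the intestinal crypt, Notch signaling keeps ATOH1 off through HES1, and a cell that escapes Notch turns ATOH1 on and enters the secretory lineage. ATOH1, a basic helix-loop-helix (bHLH) protein that binds E-box DNA, then acts above factors that divide the lineage. GFI1 holds goblet and Paneth fate against the enteroendocrine one, SPDEF and KLF4 drive goblet cell maturation, FOXA proteins open chromatin at mucin and hormone genes, and the CREB3-like proteins and BHLHA15 build the secretory apparatus itself.

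Total counts ran from 16482530 to 24218367 in tdTom+ libraries and from 18318172 to 45791503 in tdTom- libraries, where the tdTom- library of mouse 4 stood alone above 20668605. The labels give each mouse a number and name no batch. By the closeness of these numbers the mice were grouped here into 3 series (mice 1 to 3, mouse 4 and mice 5 to 8), each of which may be a batch. The fractions were checked against marker lists, by the test given below for the factors. That test called 25.5% of all genes tested higher and 25.5% lower. Of 12 goblet cell products, 11 were higher in tdTom+ cells, with a summed level of 52027 to 109460 counts per 1000000 library counts (CPM) against 2376 to 9012 in tdTom- cells, and all 8 absorptive markers were lower, with 337 to 656 against 5868 to 11525 CPM. Of 9 enteroendocrine markers 8 were lower, at 322 to 813 against 1428 to 4146 CPM, and no library was without the markers of the other fraction. Fewer cells of a type and less RNA per cell cannot be told apart in such bulk libraries. Most immune and mesenchymal markers were near the limit of detection. Cd3e, Cd3g, Cd8a, Cd79a, Col1a1, Col3a1 and Dcn each averaged at most 0.246 CPM in either fraction. Ptprc, a marker of leukocytes, was lower in tdTom+ cells (2.17 ± 0.64 against 6.23 ± 1.91 CPM, SD, n = 8; log2 fold change -1.52), as was the endothelial Pecam1 (0.87 ± 0.12 against 2.63 ± 0.42 CPM; log2 fold change -1.58), and Itgae was not called (0.30).

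The DNA in front of each gene can be described without the counts. The RefSeq promoter table (GRCm38.p6) held windows for 9 of the 10 genes, all but Creb3l1, and the 250 bases upstream of the first listed start were searched for the E-box CANNTG and for CAGCTG, the E-box core associated with ATOH1, which is itself a CANNTG. Both motifs read as the same pattern on both strands. CANNTG was present in 5 of these 9 windows and in 66.0% of the first windows of all 27025 genes in the table. CAGCTG was present in 1 of 9 and in 12.8% of all. The windows of 3 genes are printed 5′ to 3′, with every CANNTG in capitals, because they span what was found: Atoh1 has no match, Bhlha15 has the most of any first window among the 9, and Klf4 is the only one with CAGCTG. The Atoh1 window is chr6:64728875-64729124 on the plus strand, that of Bhlha15 is chr5:144190036-144190285 on the plus strand, and that of Klf4 is chr4:55532476-55532725 on the minus strand.
Atoh1: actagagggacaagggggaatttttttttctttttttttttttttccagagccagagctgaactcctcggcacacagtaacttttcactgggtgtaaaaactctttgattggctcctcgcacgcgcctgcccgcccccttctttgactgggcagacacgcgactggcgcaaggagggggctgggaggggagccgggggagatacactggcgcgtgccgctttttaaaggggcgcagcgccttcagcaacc
Bhlha15: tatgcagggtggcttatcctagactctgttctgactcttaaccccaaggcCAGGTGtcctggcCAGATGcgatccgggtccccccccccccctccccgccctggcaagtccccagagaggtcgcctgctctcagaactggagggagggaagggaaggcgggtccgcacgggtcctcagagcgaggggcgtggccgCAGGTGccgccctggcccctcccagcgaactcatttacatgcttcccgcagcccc
Klf4: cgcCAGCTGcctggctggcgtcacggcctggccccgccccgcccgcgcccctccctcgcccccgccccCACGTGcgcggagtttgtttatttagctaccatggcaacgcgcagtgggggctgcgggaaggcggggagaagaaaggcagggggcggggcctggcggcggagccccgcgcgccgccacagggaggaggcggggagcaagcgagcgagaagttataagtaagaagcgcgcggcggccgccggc
The 3 matches of Bhlha15 start 200, 187 and 55 bases before the annotated start, and those of Klf4 start 247 and 182 bases before it, the first being CAGCTG. Gfi1, Foxa3 and Foxa1 had 1 match each, and Spdef, Creb3l4 and Foxa2 had none in their first windows. Further listed windows of Gfi1, Creb3l4 and Foxa2 did hold matches. Over all 14 windows of these genes 8 held CANNTG, against 66.2% of all windows in the table. These are letter matches in a short window and not binding sites.

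Of the 10 factors 9 were higher in tdTom+ than in tdTom- cells and 1, Klf4, was lower (edgeR quasi-likelihood test, Benjamini-Hochberg adjusted p under 0.01 over 15841 genes). The 9 include Atoh1, whose direction was fixed in advance by the sort on its own locus. The counts and the median given here include it. Among all genes tested, 25.5% were called higher and 25.5% lower, so that a call alone does not set a gene apart, while the size of the change differed widely between the factors. The log2 fold changes fell into a group of 5 between 4.0 and 4.54 (Atoh1, Gfi1, Spdef, Bhlha15 and Creb3l4), a pair at 2.51 and 2.09 (Foxa3 and Creb3l1), a pair at 1.32 and 0.84 (Foxa2 and Foxa1), and Klf4 at -0.36. Their median was 3.25, against 0.0039 over all genes tested. The levels of the 2 groups did not overlap for any of the 9 higher factors, as was so for 30.5% of all genes tested in either direction, and they overlapped for Klf4. All 8 mice showed the direction of each of the 10 changes, which for the 9 higher factors follows from the groups not overlapping.

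**Figure D1:**
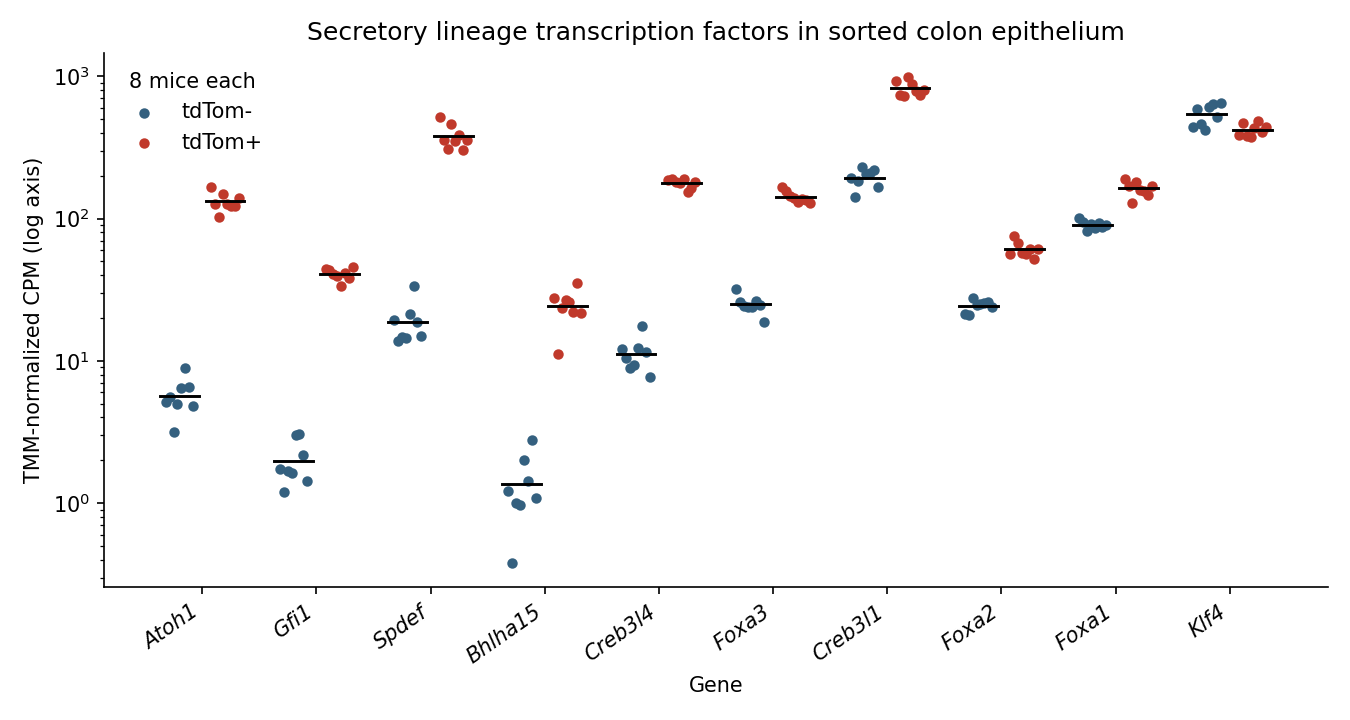
Level of each factor in each library, in CPM after TMM normalization on a log axis, with tdTom- libraries in blue and tdTom+ libraries in red (1 point per mouse, bar at the mean of 8). The genes are ordered from the largest to the smallest log2 fold change, and the 2 clouds stay apart for all genes but Klf4 at the right, where the tdTom- points from 420 to 644 CPM overlap the tdTom+ points from 372 to 483 CPM.

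Atoh1 (ENSMUSG00000073043, chr6:64729146-64731233, plus strand), whose own locus drives the label, served as the check of the sort. Its level ran from 103 to 166 CPM in tdTom+ libraries with a median of 127 CPM, and from 3.18 to 8.89 CPM in tdTom- libraries with a median of 5.38 CPM. Every tdTom+ library was above every tdTom- library by more than 10-fold, and the lowest tdTom- library still held 60 Atoh1 counts. The difference was 23.3-fold (log2 fold change 4.54, SE 0.15, adjusted p = 1.14e-15), and 46 was its place from the top when all tested genes were ranked by log2 fold change. Because the sort selects on this locus, the value describes the separation of the fractions.

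Gfi1 (ENSMUSG00000029275, chr5:107716657-107726036, minus strand), a zinc finger repressor that acts below ATOH1 and separates goblet and Paneth from enteroendocrine fate, followed closely. It stood at 33.5 to 45.4 CPM in tdTom+ libraries (median 41.1 CPM) and at 1.19 to 3.06 CPM in tdTom- libraries (median 1.71 CPM). The tdTom- values rest on 22 to 84 counts per library. The log2 fold change was 4.37 (SE 0.14, adjusted p = 1.47e-15), a 20.7-fold difference.

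Spdef (ENSMUSG00000024215, chr17:27714352-27728951, minus strand), the ETS factor of goblet cell maturation, had the highest level per length of the 5 factors with the largest changes. Its tdTom+ libraries ran from 305 to 519 CPM with a median of 357 CPM and its tdTom- libraries from 13.9 to 33.4 CPM with a median of 16.8 CPM. The highest tdTom- library, that of mouse 6, was also the highest in tdTom- cells for Atoh1, Gfi1 and Creb3l4. The log2 fold change was 4.34 (SE 0.18, adjusted p = 2.56e-14), or 20.2-fold.

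Bhlha15 (ENSMUSG00000052271, chr5:144190286-144194441, plus strand), also known as MIST1, organizes granules and the secretory apparatus in zymogenic and other professional secretory cells. It had the lowest level per length of the 10 in both fractions, with 11.2 to 35.4 CPM in tdTom+ libraries (median 24.7 CPM) and 0.38 to 2.77 CPM in tdTom- libraries (median 1.15 CPM), the latter from 7 to 53 counts. Mouse 2 gave the lowest value in both fractions, and its ratio of 4.58 on the log2 scale was the second largest of the 8. In the unpaired fit the log2 fold change of 4.18 had the largest error of the 10 (SE 0.26, adjusted p = 1.28e-11). With the libraries of a mouse paired in the fit its SE was 0.12, below those of Gfi1 (0.14) and Spdef (0.13).

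The CREB3-like factors are held in the endoplasmic reticulum membrane and released by cleavage to act on genes of the secretory pathway. Creb3l4 (ENSMUSG00000027938, chr3:90237500-90243512, minus strand) ran from 154 to 191 CPM in tdTom+ libraries (median 181 CPM) and from 7.68 to 17.4 CPM in tdTom- libraries (median 11.0 CPM). It had the smallest SD relative to its mean among the 10 in tdTom+ cells, 179 ± 12.9 CPM (SD, n = 8). Its log2 fold change was 4.0 (SE 0.12, adjusted p = 6.10e-16).

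Creb3l1 (ENSMUSG00000027230, chr2:91982328-92024502, minus strand), also known as OASIS and required for terminal goblet cell maturation in the colon, had the highest level per length of the 10 in tdTom+ cells and was also well expressed in tdTom- cells. The tdTom+ libraries held 722 to 983 CPM (median 795 CPM) and the tdTom- libraries 142 to 229 CPM (median 199 CPM). The 4.25-fold difference (log2 fold change 2.09, SE 0.10, adjusted p = 1.78e-13) was smaller than that of Creb3l4 in all 8 mice. Within mice the log2 ratio of Creb3l4 exceeded that of Creb3l1 by 1.92 ± 0.37 (SD, n = 8 mice; two-sided exact sign-flip permutation test, p = 0.0078, adjusted over 4 pairs 0.0078). With 8 mice, 0.0078 is the smallest p this test can give.

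The FOXA proteins are pioneer forkhead factors, and they were graded. Foxa3 (ENSMUSG00000040891, chr7:19013282-19023538, minus strand) ran from 129 to 167 CPM in tdTom+ and from 18.7 to 32.1 CPM in tdTom- libraries (medians 138 and 24.4 CPM), a 5.71-fold difference (log2 fold change 2.51, SE 0.09, adjusted p = 2.15e-15). Foxa2 (ENSMUSG00000037025, chr2:148042877-148046969, minus strand) ran from 52.2 to 75.2 CPM in tdTom+ and from 20.9 to 27.7 CPM in tdTom- libraries (medians 59.6 and 25.0 CPM), a 2.50-fold difference (log2 fold change 1.32, SE 0.08, adjusted p = 3.75e-12). Foxa1 (ENSMUSG00000035451, chr12:57540631-57546121, minus strand) ran from 128 to 191 CPM in tdTom+ and from 81.3 to 102 CPM in tdTom- libraries (medians 164 and 90.4 CPM), a 1.80-fold difference (log2 fold change 0.84, SE 0.07, adjusted p = 1.65e-09). Per length, Foxa3 stood above Foxa1 in tdTom+ cells (142 and 105 TPM) and below it in tdTom- cells (26.1 and 60.9 TPM).

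The grading held within each mouse. The log2 ratio of Foxa3 exceeded that of Foxa1 by 1.68 ± 0.16 and that of Foxa2 by 1.20 ± 0.24, and the ratio of Foxa2 exceeded that of Foxa1 by 0.48 ± 0.25 (SD, n = 8 mice). Each of these differences had the same sign in 8 of 8 mice and reached the smallest p of the exact sign-flip test (p = 0.0078, adjusted 0.0078 over the 4 family pairs). The smallest single difference, 0.22 between Foxa2 and Foxa1, came close to no difference.

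Klf4 (ENSMUSG00000003032, chr4:55527143-55532466, minus strand) encodes a zinc finger factor needed for colonic goblet cells that is also made by differentiated cells of the surface epithelium. It was the only one of the 10 that was lower in tdTom+ cells. The tdTom+ libraries ran from 372 to 483 CPM with a median of 421 CPM, and the tdTom- libraries from 420 to 644 CPM with a median of 555 CPM. The groups overlapped, while within every mouse the tdTom+ library was the lower one, by 0.18 to 0.55 on the log2 scale. The log2 fold change was -0.36 (SE 0.10, adjusted p = 0.0028), a 1.28-fold lower level.

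In the unpaired fit the Klf4 call depended on the mice included. It was lost without mouse 5 (log2 fold change -0.34, adjusted p = 0.0115), without mouse 8 (log2 fold change -0.32, adjusted p = 0.0115) and in mice 1 to 3 alone (log2 fold change -0.28, adjusted p = 0.158). Pairing the libraries of a mouse in the fit gave -0.35 on the log2 scale (adjusted p = 1.82e-05) in all mice. The paired fit was not repeated with mice left out. Over all the alternative settings its adjusted p ran from 1.82e-05 to 0.158, with the same direction in each.

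Levels can be compared between genes only per length, and for this transcripts per 1000000 (TPM) were computed from the counts and the exon lengths in the files. Creb3l1 led in tdTom+ cells with 651 ± 154 TPM (SD, n = 8), followed by Spdef with 358 ± 100, Klf4 with 281 ± 42.5 and Creb3l4 with 217 ± 31.9 TPM. Foxa3 (142 ± 16.9 TPM) and Atoh1 (130 ± 30.9 TPM) came next and were the only neighbors in this order that changed places between mice, Foxa3 being higher in 6 of 8. Foxa1 (105 ± 22.6), Foxa2 (52.2 ± 6.42), Gfi1 (25.6 ± 3.90) and Bhlha15 (14.2 ± 4.29 TPM) closed the order, so the factor that defines the label ranked 6 of 10 by level.

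In tdTom- cells the order was different. Klf4 led with 378 ± 63.2 TPM, followed by Creb3l1 with 161 ± 37.2 and Foxa1 with 60.9 ± 8.09 TPM, and these 3 kept their places in all 8 mice. Foxa3, Foxa2, Spdef and Creb3l4 lay between 26.1 and 14.3 TPM. The neighbors Foxa3 and Foxa2, and Foxa2 and Spdef, changed places in 1 mouse each. Atoh1 (5.83 ± 1.70 TPM) stood above Gfi1 (1.32 ± 0.47) and Bhlha15 (0.84 ± 0.44 TPM), and the last pair changed places in 1 mouse.

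**Figure D2:**
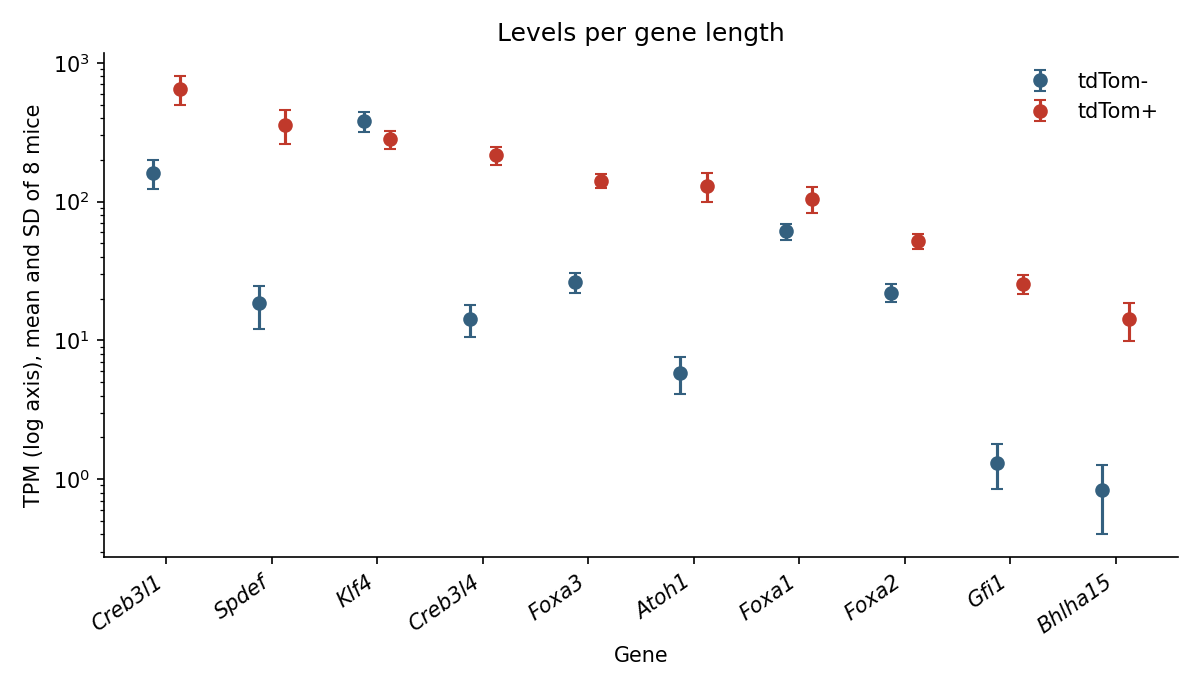
Level per gene length of the 10 factors in tdTom- (blue) and tdTom+ (red) libraries, in TPM on a log axis, as mean and SD of 8 mice. From left to right the tdTom+ means fall from 651 to 14.2 TPM, whereas the tdTom- means do not follow that order and are highest for Klf4 at 378 TPM.

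For several factors the size of the change differed between the series of mouse numbers, as a description with no test. Mean log2 ratios were larger in mice 1 to 3 than in mice 5 to 8 for Atoh1 (4.81 and 4.27), Gfi1 (4.73 and 4.03), Spdef (4.59 and 4.04), Creb3l4 (4.15 and 3.86) and Bhlha15 (4.46 and 3.83). For Bhlha15 the 2 series did not overlap, and neither did they for Klf4, at -0.27 and -0.45. Foxa3 stood at 2.51 in both series and Foxa1 at 0.81 and 0.82, while Foxa2 was at 1.51 and 1.20 and Creb3l1 at 2.21 and 2.01. With 3 mice against 4 no exact test can go below p = 0.057, and none was run.

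The mean tdTom- levels of some factors differed between the series, in both directions, with overlapping values. They were 4.65 CPM in mice 1 to 3 and 6.67 CPM in mice 5 to 8 for Atoh1, 0.87 and 1.82 CPM for Bhlha15, and 27.4 and 23.4 CPM for Foxa3. For Foxa1 the means were 92.3 and 89.1 CPM, and mice 1 to 3 (81.3 to 102 CPM) enclosed mice 5 to 8 (86.2 to 93.3 CPM). The mean tdTom+ levels in the same series were 132 and 128 CPM for Atoh1, 20.7 and 26.3 CPM for Bhlha15, and 156 and 133 CPM for Foxa3. The summed goblet cell products of the tdTom- libraries ran from 2425 to 3609 CPM in mice 1 to 3 and from 2934 to 9012 CPM in mice 5 to 8. The part of goblet cell RNA in the tdTom- fraction was not tested. Within each of these 2 series taken alone the 9 higher factors were called higher, with log2 fold changes of 4.83 and 4.26 for Atoh1 and of 0.82 in both for Foxa1.

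**Figure D3:**
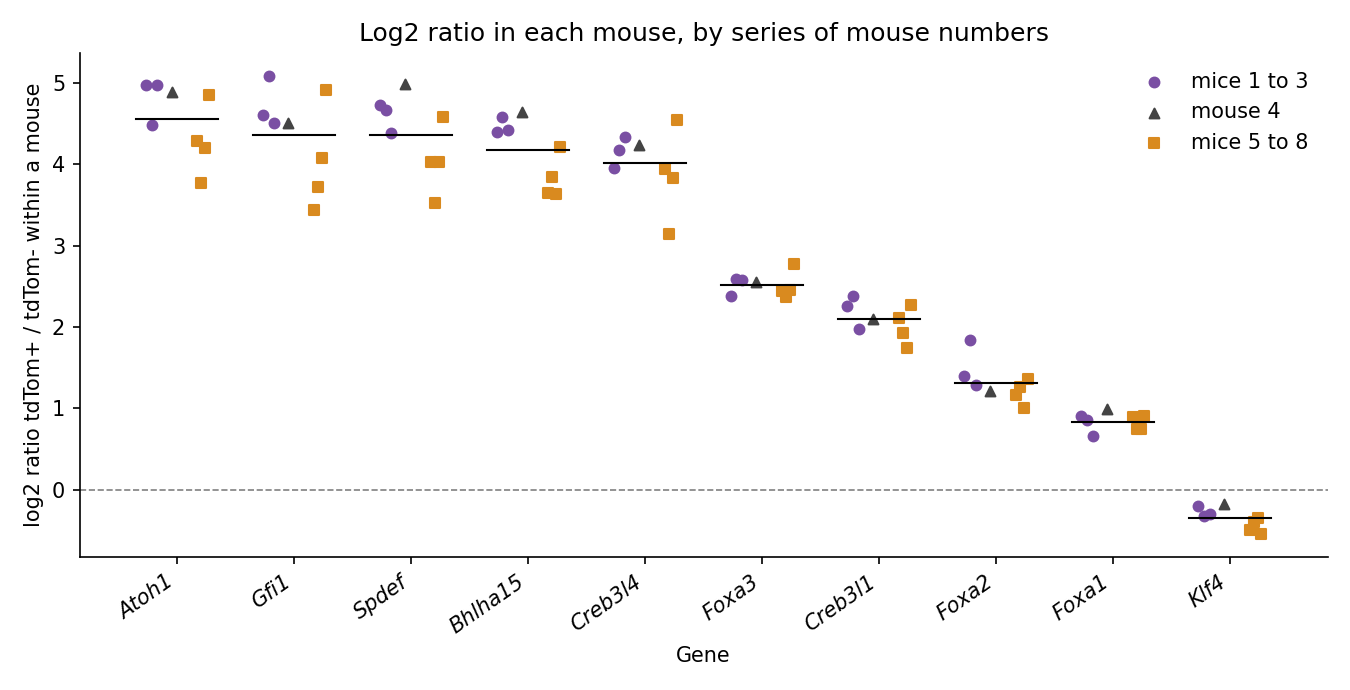
Log2 ratio of the tdTom+ to the tdTom- library within each mouse for the 10 factors, with mice 1 to 3 as purple circles, mouse 4 as a grey triangle, mice 5 to 8 as orange squares and a bar at the mean of the 8. All points of the 9 factors at the left are above 0 and all Klf4 points are below it, and for Bhlha15 and Klf4 the purple and orange points do not overlap.

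Across the 8 tdTom+ libraries the factors did not all vary together with Atoh1. Foxa1 followed it most closely, with Pearson's r = 0.95 (two-sided exact permutation p = 4.2e-04, adjusted over 18 relations 0.0076) and Spearman's rho = 0.95 (exact permutation p = 0.0011, adjusted 0.021), and r was 0.85 without mice 1 and 3, the 2 farthest from the median of Atoh1. Spdef came second by r, with r = 0.87 (exact permutation p = 0.0049, adjusted 0.044) but rho = 0.71 (exact permutation p = 0.058, adjusted 0.26), and r was 0.73 without the same mice. Creb3l1 had r = 0.77 (exact permutation p = 0.019, adjusted 0.093) and rho = 0.81 (exact permutation p = 0.022, adjusted 0.13), and r was 0.70 without them. For Gfi1 r was 0.29, for Creb3l4 0.24 and for Bhlha15 0.13, with adjusted exact permutation p-values of 0.67, 0.72 and 0.75. Of the 18 relations, 9 in each fraction, 2 had an adjusted p under 0.05 by Pearson's r, both in tdTom+ cells. In tdTom- cells Spdef (r = 0.78) and Creb3l4 (r = 0.82) had exact permutation p-values of 0.028 and 0.021, which were 0.10 and 0.093 after adjustment. Without mice 3 and 6, the farthest from the tdTom- median of Atoh1, r was 0.63 and 0.73. The share of mitochondrial counts in the tdTom+ libraries ran from 2.23% in mouse 4 to 6.92% in mouse 2. That of mouse 3, lowest for Atoh1 and Foxa1 and in total counts, was 6.48%. The part of such differences between libraries in these relations was not tested. The series hold 3, 1 and 4 mice, too few for a test within each. In the tdTom+ libraries of the 4 mice of the largest series r was 0.84 for Foxa1, 0.21 for Spdef and 0.19 for Creb3l1, so that those of Spdef and Creb3l1 were lower there than over all 8 mice. For Foxa3 it was -0.83, against 0.32 over all 8. In the tdTom- libraries of these 4 mice r was higher than over all 8, at 0.96 for Spdef and 0.99 for Creb3l4.

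**Figure D4:**
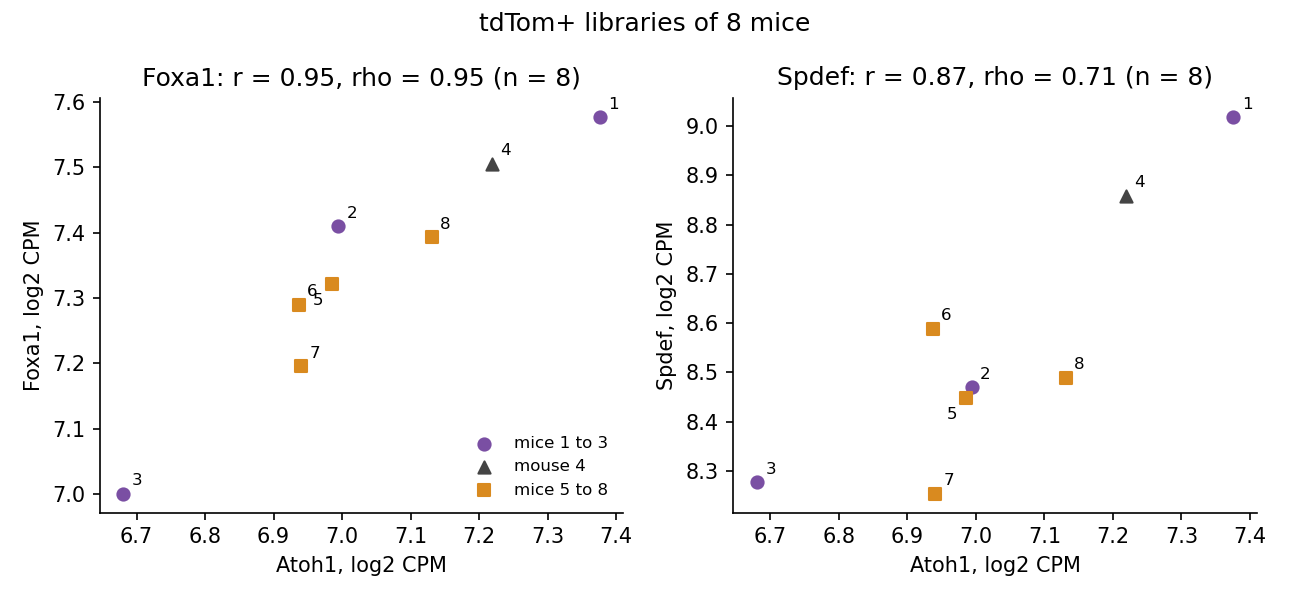
Foxa1 (left) and Spdef (right) against Atoh1 in the 8 tdTom+ libraries, all in log2 CPM, with the mouse number beside each point and the series by color and shape. Foxa1 falls close to a line from mouse 3 at the lower left to mouse 1 at the upper right (r = 0.95), and Spdef scatters more (r = 0.87).

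Over all 16 libraries, where the 2 fractions form separate clusters and any gene with a large difference correlates, the genes most like Atoh1 among 13287 ranked were Slc12a8 (r = 0.997), A4gnt, Rap1gap, Pmm2 and Cbfa2t3 (each r above 0.996). A4gnt transfers the N-acetylglucosamine of gland mucins, Pmm2 makes mannose 1-phosphate for N-glycosylation and Cbfa2t3 is a transcriptional corepressor of the ETO family. Their log2 fold changes were 4.73, 5.38, 4.06, 1.30 and 3.80. On the same scale Spdef held place 7, Creb3l4 place 9, Gfi1 place 67, Foxa3 place 192, Creb3l1 place 218, Foxa1 place 647, Bhlha15 place 663 and Foxa2 place 704, and Klf4 had r = -0.63. These correlations are descriptions.

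Relatives of the factors were taken from a list that does not hold every gene of each protein family. Of 65 listed relatives that are not among the 10 factors, 46 had enough counts to be tested. Of these 16 were higher, 17 lower and 13 not called, with a median log2 fold change of -0.11. Over all genes tested, 25.5% were called higher and 25.5% lower. Calls in both directions alone therefore do not set a list apart. None of the 46 reached the log2 fold changes of Atoh1, Gfi1, Spdef, Bhlha15 or Creb3l4 in the higher direction.

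The 3 other CREB3 proteins differed most. Creb3 rose from 37.5 ± 2.07 to 62.4 ± 3.19 CPM (log2 fold change 0.73, SE 0.05, adjusted p = 3.30e-11) and Creb3l2 from 14.8 ± 2.95 to 26.9 ± 5.9 CPM (0.87, SE 0.13, adjusted p = 6.33e-06), going from tdTom- to tdTom+ cells (SD, n = 8). Creb3l3, a factor known for its control of lipid metabolism genes in liver and gut, was lower (log2 fold change -5.38, SE 0.33, adjusted p = 8.78e-12). It stood at 6.58 to 22.5 CPM in tdTom- libraries and at 0.10 to 0.39 CPM in tdTom+ libraries, so that 1 family held genes that passed the test in both directions.

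Gfi1b, the only close relative of Gfi1 and a tuft cell factor in the gut, went the other way from Gfi1. It was near the limit of counting, with 1.20 ± 0.39 CPM in the tdTom- and 0.50 ± 0.26 CPM in the tdTom+ fraction (SD, n = 8; log2 fold change -1.24, SE 0.29, adjusted p = 0.0010), and the groups overlapped. The bHLH relatives went both ways. Neurog3, the enteroendocrine progenitor factor, was higher (4.92 ± 3.16 against 1.62 ± 0.67 CPM, log2 fold change 1.58, SE 0.36, adjusted p = 7.5e-04, higher in 8 of 8 mice with overlapping groups). Neurod1, which acts after Neurog3, was lower (log2 fold change -1.12, adjusted p = 5.0e-04), as was the stem cell factor Ascl2 (-0.79, adjusted p = 0.0017). Atoh8 did not pass (log2 fold change 0.43, adjusted p = 0.019), and Atoh7 had 0 counts in all 16 libraries, which allows a level of at most 0.0655 to 0.182 CPM depending on the library.

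The larger families held calls in both directions, as did all genes tested (25.5% higher and 25.5% lower). The counts and ranges here are those of the listed relatives. Genes outside the list went lower, with the ETS gene Etv1 at -1.25 and the forkhead gene Foxn1 at -3.54, and the other unlisted genes were not surveyed. Of 11 tested ETS relatives of Spdef 6 were higher and 4 lower, from Etv5 at 2.82 (SE 0.17, adjusted p = 1.26e-11), a factor induced by growth factor signaling, to Elf4 at -0.94 (SE 0.06, adjusted p = 5.16e-11). Of 13 tested forkhead relatives 4 were higher and 6 lower, from Foxp1 at 0.95 (SE 0.08, adjusted p = 3.44e-09) to Foxo6 at -1.50 (SE 0.22, adjusted p = 5.81e-06), and none reached Foxa2 or Foxa3. Of 13 tested Klf relatives 3 were higher and 2 lower, from Klf15 at 2.16 (SE 0.15, adjusted p = 1.05e-10) to Klf6 at -0.92 (SE 0.16, adjusted p = 5.56e-05), an immediate early gene.

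**Figure D5:**
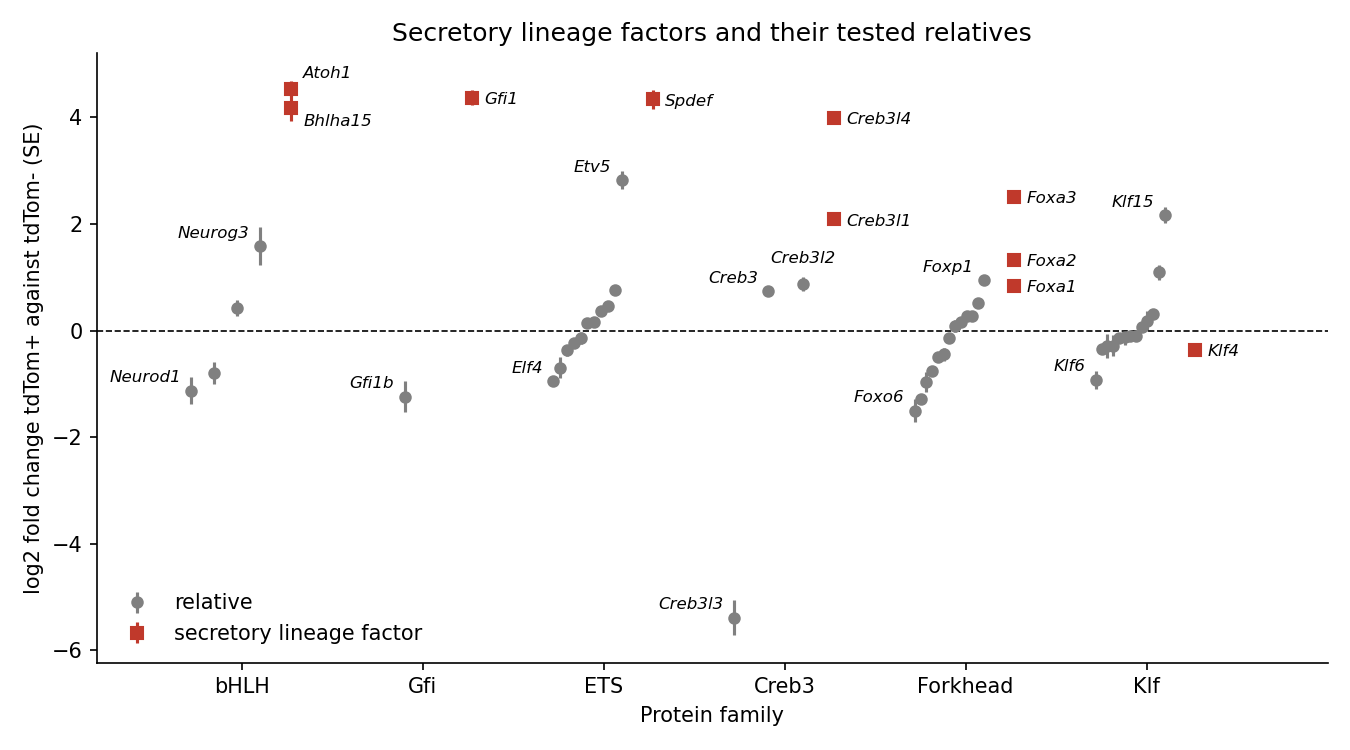
Log2 fold change of tdTom+ against tdTom- cells with its SE for the 10 factors (red squares) and their listed and tested relatives (grey circles) in 6 protein families, with the extremes plotted for each family named. The bHLH, Gfi, ETS, Creb3 and forkhead factors lie above all of their listed relatives except Foxa1 at 0.84, which Foxp1 at 0.95 exceeds. Klf4 lies within the range of its listed relatives.

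Genes that act on ATOH1 or around it changed on both sides. Of 9 tested Notch ligands, receptors and Hes targets 3 were higher and 5 lower, where 25.5% of all genes tested were called higher and 25.5% lower. The higher ones were Dll1 (log2 fold change 2.64, SE 0.12, adjusted p = 1.76e-13), the ligand of secretory progenitors, and Dll4 and Notch4 at 2.52 and 2.32, named after their values were seen. The lowest was the receptor Notch2 (-1.16, SE 0.08, adjusted p = 6.95e-11), and Hes1, the repressor of Atoh1, stood at -1.08 (SE 0.11, adjusted p = 3.17e-08), also named after its value was seen.

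Of the 7 E proteins, with which bHLH factors pair, and Id proteins, which capture E proteins, 1 was higher and 4 lower. The share of all genes tested was 25.5% in each direction. Id4 was the highest (log2 fold change 3.94, SE 0.19, adjusted p = 2.02e-13), at 6.94 ± 1.21 against 0.45 ± 0.18 CPM (SD, n = 8). Id1 was the lowest (-1.16, SE 0.12, adjusted p = 2.35e-08), so that members of the Id family passed the test in opposite directions.

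Factors of the other lineages were mostly lower or not called, where 25.5% of all genes tested were called higher and 25.5% lower. Of 12 enteroendocrine factors 1 was higher, Neurog3, and 4 were lower, Neurod1 being the lowest. Of 9 absorptive factors 6 were lower and 3 not called, the lowest being Maf (log2 fold change -2.66, SE 0.29, adjusted p = 8.3e-08) and the highest Gata6 (0.04, adjusted p = 0.52). Of the tuft factors Gfi1b was lower and Pou2f3 was not called (0.05, adjusted p = 0.82).

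Known targets of BHLHA15 in other secretory cells were tested for 4 of 5 genes, where 25.5% of all genes tested were called higher and 25.5% lower. Copz2, a coat protein of Golgi vesicles, was higher (log2 fold change 4.74, SE 0.13, adjusted p = 4.20e-16), at 41.1 ± 3.82 against 1.59 ± 0.41 CPM (SD, n = 8). The calcium pump Atp2c2 (3.46, SE 0.16, adjusted p = 1.07e-13) and the granule GTPase Rab3d (2.22, SE 0.08, adjusted p = 2.15e-15) were also higher, and the connexin Gjb1 was not called (0.11, adjusted p = 0.20). Rab26 had too few counts for a test.

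The goblet cell products went from Spink4 at 5.03 (SE 0.28, adjusted p = 2.47e-12) down to St6galnac1, which was not called (0.49, adjusted p = 0.12), with a median log2 fold change of 3.84. The absorptive markers went from Krt20 at -3.30 to Aqp8 at -5.18, and the enteroendocrine markers from Sst at -0.55 (adjusted p = 0.16, and 4.1e-05 in the paired fit) to Tph1 at -3.56. Lgr5 (-0.71), Ascl2 (-0.79), Smoc2 (-0.38) and Axin2 (-0.32) of the 5 stem cell markers were lower, and Slc12a2 (0.75) was higher. Of the proliferation markers Pcna, Ccnb1 and Mcm5 were lower, and Mki67 and Top2a passed in the paired fit and not in the unpaired one (adjusted p = 0.051 and 0.012 unpaired, 6.0e-05 and 9.3e-07 paired). The tuft markers Dclk1, Trpm5, Gfi1b and Alox5ap were lower and Pou2f3 and Avil were not called, Avil being called in the paired fit (adjusted p = 0.012 unpaired and 0.0031 paired). Of the epithelial markers Krt18 was higher, and Epcam, Cdh1 and Krt8 were lower.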

How the data were processed

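Poly(A) RNA of EpCAM+ tdTom+ and EpCAM+ tdTom- colon cells was sequenced as stranded single-end libraries. The authors aligned the reads to GRCm38.p3 with TopHat2 2.1.1 and deposited, per sample, raw counts per gene from featureCounts (exons, reverse strand, primary alignments; Subread 1.5.2 per the submitters' processing notes). The deposited counts are not normalized. Groups and the pairing by mouse came from the sample labels. Symbols came from GENCODE M21. The 10 genes, the related gene lists and the tests were chosen with earlier results of these data known.

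The test was edgeR's quasi-likelihood F test (edgeR 4.0.16, R 4.3.3; filterByExpr, TMM, no mouse term, Benjamini-Hochberg adjusted p under 0.01), after the fit had been tested on simulated data. Each SE is the log2 fold change over the root of its F value. A prior count of 2 entered log2 CPM. TPM were computed from the counts and the exon lengths in the files. Ratios within mice used TMM-normalized log2 CPM. The 2 samples of a mouse deviated from their group means together (mean correlation 0.30, from 0.22 to 0.41, over the 8 mice). No such value is given for samples of different mice. A fit with a mouse block is a paired one by design. Alternatives were that block, RLE and upper-quartile normalization, DESeq2 1.42.0, limma-voom (limma 3.58.1), all genes with a count, only genes with at least 10 counts in each library, an adjusted p of 0.05, each mouse left out, mice 1 to 3 or mice 5 to 8 alone, and the tdTom- library of mouse 4 left out. Named genes are the 10 factors, all Creb3, Foxa, Gfi1 and Atoh relatives, the extremes of each other list, all genes of lists with at most 6 tested, and the 5 genes most correlated with Atoh1, except where the text says otherwise, and 1 gene is not reported here. Floors are 3 counts and cover counting error only. Summaries used Python 3.11.15 with pandas 2.3.3, numpy 2.4.6 and scipy 1.17.1.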

Additional observations from a re-analysis of the deposited data

Results flagged for a closer look

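Of 32 sets of 8 values 3 held a sample far from the others by Dixon's test, where chance alone gives about 1.6. The tdTom+ library of mouse 2 had Bhlha15 at 3.50 log2 CPM, below the 4.46 to 5.15 of the other 7 tdTom+ libraries. The log2 ratio of Foxa2 in mouse 2 was 1.84, above the 1.01 to 1.39 of the other mice. The tdTom- library of mouse 4 had 45791503 counts, against 18318172 to 20668605 in the other 7. The causes were not tested.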

How the results depend on the processing

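For the 9 higher factors, which include Atoh1 with its direction fixed by the sort, 161 of 161 values under other settings had the same direction and passed the test. Of the alternative log2 fold changes of all 10 factors, 176 of 179 kept the direction and the call of the main fit. The differences between family pairs kept their sign in 48 of 48 values, those from mice 1 to 3 or mice 5 to 8 alone having no p-value. Of the counts, 107 of 114 stayed within a set ratio of the main count. The exceptions concern fewer mice. The number of factors called lower was 0 without mouse 5, without mouse 8 and in mice 1 to 3 only, since the Klf4 call was lost there. It ran from 0 to 1 over the fits that left out 1 mouse, all of which were unpaired. In mice 1 to 3 only, with 6 samples, 9 relatives were called higher and 8 lower, against 16 and 17 in all mice, and 2546 and 2559 of all genes, against 4032 and 4042. Where 10 counts were required in each library, Bhlha15 was not tested and 8 factors were called higher. Without the tdTom- library of mouse 4 the calls were again 9 and 1. The replicate block gave 9 factors called higher and 1 lower, 17 and 18 relatives, and 4494 and 4574 of all genes, and among the genes named it changed no call other than those of Sst, Mki67, Top2a and Avil. The widest range of a log2 fold change was that of Gfi1, from 4.04 in mice 5 to 8 to 4.79 in mice 1 to 3. Depth limits the tdTom- values of Bhlha15 and Gfi1, which rest on as few as 7 and 22 counts.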
